A study of Drosophila melanogaster with 18 samples.

Results

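TRIBE sites on the X chromosome of the *Drosophila* larval fat body were described by their G share, the percentage of G among A and G reads. The members were the listed sites on the X where A and G reads came to at least 20 in each of the 6 TRIBE libraries, each site counted once. This gave 11085 of the 15165 X sites listed, among 69874 of 91502 sites of all arms that passed the same minimum. TRIBE fuses an RNA-binding protein to the catalytic domain of ADAR, so that adenines of bound RNA are deaminated to inosine and read as G. The 3 libraries called 4EHP-ADAR (genotype dcg-Gal4/uas-4EHP-adar) carried wild-type 4EHP, a homolog of the cap-binding protein eIF4E. The 3 libraries called 4EHP W114A-ADAR (dcg-Gal4/uas-4EHPmutant-adar) carried a mutant with an impaired cap-binding pocket as the negative control. All 6 were polyA RNA of the fat body of larvae in the third instar, with the transgenes inserted on chromosome 2 and driven in the fat body by *dcg-Gal4*. Both constructs carried a hyperactive form of the ADAR domain, and the labels give all 6 libraries the same batch.

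In RNA reads, an A-to-G variant of the genome looks the same as an edited base, and no DNA reads were used here to tell them apart. ADAR editing of a transcript usually reaches only part of its copies. A variant, in contrast, is present in every copy made from the chromosome that carries it. Male larvae have 1 X and pairs of the large autosomes, so a male can carry an X variant on all of its copies or on none, while an autosomal variant can also be heterozygous. Each library pooled the fat bodies of several male larvae according to the study's methods. A pool of males with different X chromosomes can therefore have any mixture of the pair of alleles.

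The members lay under 1312 gene names, with 5317 on the plus strand and 5768 on the minus strand. A gene had a median of 6 member sites, 135 genes had 1, and the 415 genes with 10 or more held 66.0% of the members, so that many members share a transcript. The BDGP6.54 annotation held the gene ID of 96.7% of the members, and all of these lay inside that gene. Overlapping genes concern 205 members, which were listed under more than 1 gene, and their reads cannot be told apart between these genes. The median number of reads per member was 104, 95 and 99 in 4EHP-ADAR, and 84, 63 and 64 in 4EHP W114A-ADAR. Autosomal sites had higher medians, 126, 117 and 121 against 99, 71 and 75. Members held between 20 and 2012 reads in a library.

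The X sites and the tissue were checked by reads at the listed sites of marker genes, since the table gives reads at listed sites only. The fat body list had a listed site in 4 of 5 genes, and the summed highest reads were between 862 and 1459 per library. *Lsp1alpha*, an X-linked larval serum protein gene of the fat body, reached 632, 403 and 291 reads in 4EHP-ADAR and 241, 220 and 206 in 4EHP W114A-ADAR. *roX1*, the noncoding RNA of male dosage compensation, reached between 328 and 727 reads per library. The yolk protein genes *Yp1* and *Yp2* had no listed site, and *Yp3* reached 6 to 19 reads. Testis genes had a listed site in 4 of 4, with sums between 1275 and 2968, so reads of these male germline genes were present in all 6 libraries. Salivary gland genes had a listed site in 2 of 4, with sums from 42 up to 2630, the latter in 4EHP-ADAR library 3, where *Sgs7* reached 2075 reads against 35 to 153 elsewhere. Haemocyte genes had one in 3 of 3 (sums 30 to 94), muscle genes in 3 of 5 (62 to 143), and gut genes in 0 of 3. The part of these other cell types in the results below was not tested.

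Most members had very few G reads. G was found in just 1 of the 6 libraries at 89.5% of the X members (88.0% of the autosomal sites), and 66.9% (64.9% of autosomal sites) had a single G read in all libraries together. No G read was found in any 4EHP W114A-ADAR library at 93.8% of the members. The pooled G share was higher in 4EHP-ADAR at 11081 members (99.96%), but the authors kept sites after comparing these libraries in that direction, so this carries no information. The number of members with any G read was 3901, 3591 and 4805 in 4EHP-ADAR and 470, 298 and 328 in 4EHP W114A-ADAR, which the same selection shapes.

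Most members fell into a low class and very few into a high one, with the others between them. At 10579 members (95.4%), the G share was at most 5% in all 6 libraries. At 19 members (0.171%), it was at least 95% in all 6, a level called near full here. The remaining 487 (4.39%) were in neither class. On the autosomes these classes took 94.7%, 0.209% and 5.07% of 58747 sites. Sites just above and just below the read minimum had like median shares, taken over all classes. The 199 X sites whose lowest library had 20 reads had a median pooled share of 1.00% in 4EHP-ADAR, and the 228 excluded sites with 19 had 1.02%. The highest pooled shares were 36.2% and 99.2%.

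**Figure D1:**
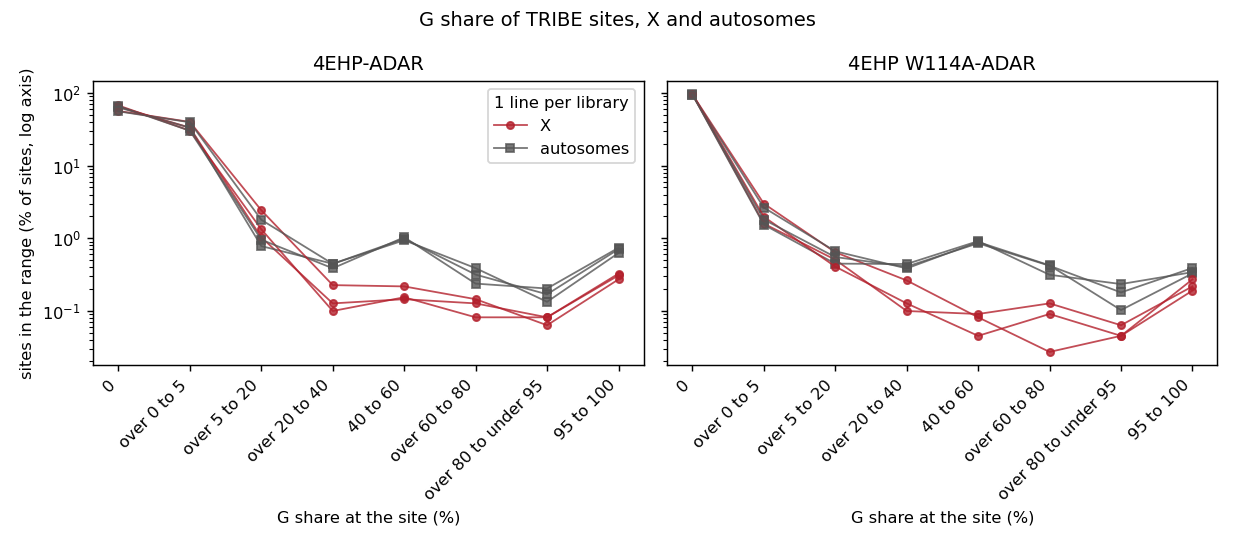
Percentage of sites in each range of G share (log axis), with 1 line per library for the X (red) and the autosomes (grey), for 4EHP-ADAR (left) and 4EHP W114A-ADAR (right). The autosomal lines have a rise at 40 to 60%, where they reach between 0.851% and 1.03% of sites, while the X lines there are between 0.0451% and 0.217%.

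The X held fewer sites than the autosomes in the middle of the range. A G share of 40 to 60% was found at 0.144%, 0.153% and 0.217% of the X members in 4EHP-ADAR libraries 1, 2 and 3. In 4EHP W114A-ADAR libraries 1, 2 and 3 it was found at 0.0812%, 0.0902% and 0.0451%. The autosomal percentages were 0.938%, 1.03% and 0.984% in 4EHP-ADAR and 0.887%, 0.911% and 0.851% in 4EHP W114A-ADAR. The X was lower in 6 of 6 libraries, and the groups of libraries did not overlap. The mean was 0.122% ± 0.0616 (SD, n = 6) on the X and 0.933% ± 0.0653 (SD, n = 6) on the autosomes. The difference of −0.812 percentage points ± 0.0364 (SD) had an exact two-sided sign-flip permutation p of 0.03125, the smallest that 6 libraries allow. The libraries share their sites, so this p speaks only of the spread between libraries. The X was the lowest of the 5 large arms in each of the 6 libraries, and among these arms 3R came next, with 0.484% to 0.696%.

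The small chromosome 4 did not follow the other autosomes. It held 882 sites that passed the minimum, and 0.113% to 0.227% of these were at 40 to 60%. The X was above chromosome 4 in 2 libraries and below it in 4, and with chromosome 4 alone as the comparison the difference was −0.0483 points (exact sign-flip p = 0.3125). At 882 sites, 1 site is 0.113%, so a difference of this size was not detectable.

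Sites that stayed at 40 to 60% in all 6 libraries were counted next. There were 0 such members among 11085, which allows a share of up to 0.0271% from a limit of 3 sites. This limit takes the sites as independent, which members that share a transcript are not, so it is too narrow. There were 142 such sites among the 58747 autosomal ones (0.242%). Of these, 61 lay on 2R, 33 on 2L, 32 on 3L, 15 on 3R and 1 on chromosome 4.

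**Figure D2:**
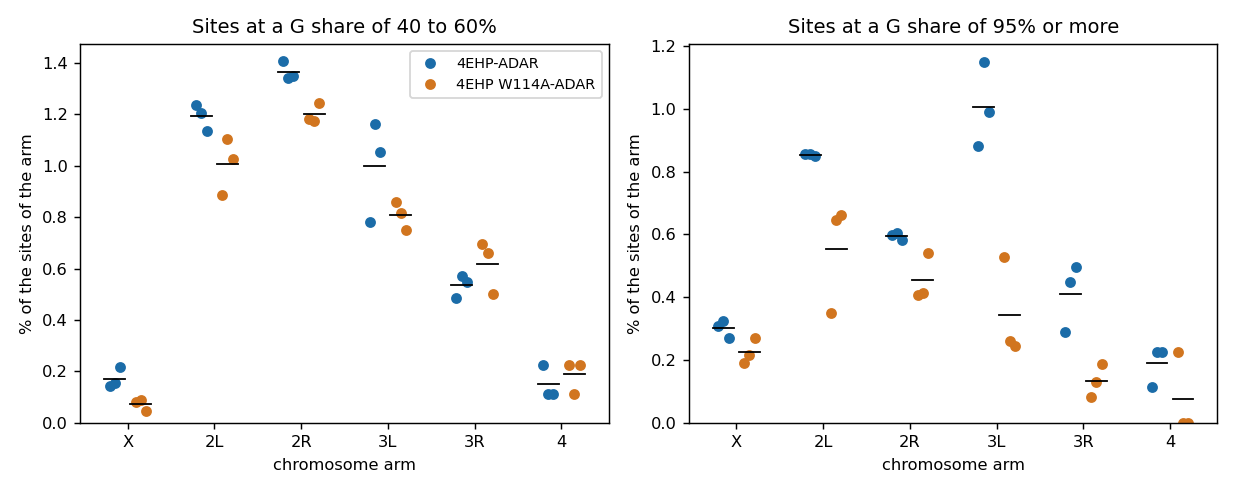
Percentage of the sites of each chromosome arm with a G share of 40 to 60% (left) and of 95% or more (right). Points are libraries and black lines are means of 3. On the left, the X points lie at 0.217% or below and those of 2L, 2R, 3L and 3R at 0.484% or above. On the right, the X points overlap those of 3R.

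At shares of 95% or more, the X was less set apart. The percentage of members was 0.307%, 0.325% and 0.271% in 4EHP-ADAR and 0.189%, 0.217% and 0.271% in 4EHP W114A-ADAR. The autosomes had 0.625%, 0.737% and 0.706%, and 0.327%, 0.340% and 0.388%. The X was lower in 6 of 6 libraries, by 0.257 percentage points on average (exact sign-flip p = 0.03125), but it was the lowest of the 5 large arms in 2 libraries only. Against the arms of chromosome 3 alone, the difference was −0.190 points with an exact p of 0.125, and 3R was below the X in all 3 libraries of 4EHP W114A-ADAR and in library 1 of 4EHP-ADAR. The sign depended on the denominator. Among the sites that reached 20% in 1 or more libraries, which were 113 members (1.02%) and 1612 autosomal sites (2.74%), near-full sites made up 16.8% on the X and 7.63% on the autosomes. That comparison was chosen after the data were seen.

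The remaining classes are tied to the near-full class and to each other. Shares of at least 95%, between 5% and 95%, and at most 5% make up all sites. The difference of each therefore follows from the others, and their opposite signs are not separate results. Shares of 40 to 60% lie within 5 to 95%. Shares above 5% and below 95% were found at 0.713% to 3.08% of the members per library, and at 2.34% to 3.70% of the autosomal sites. The difference was −1.24 points ± 0.371 (SD, n = 6 libraries, exact sign-flip p = 0.03125). It did not hold over the whole range. In 4EHP-ADAR, shares over 5% to 20% were found at 1.03%, 1.33% and 2.43% of the members, above the autosomal 0.778%, 0.953% and 1.79%. In 4EHP W114A-ADAR the values were 0.641%, 0.505% and 0.406%, against 0.660%, 0.446% and 0.550%. No test was made of this narrower range. Shares of at most 5% were found at 98.2% ± 0.885 (SD, n = 6) of the members, 1.49 points ± 0.243 (SD, n = 6) above the autosomes with the same exact p. For 5 to 95% and for at most 5%, the X was at the end of the 5 large arms in all 6 libraries. Chromosome 4 lay beyond it in the low class in 6 of 6. The Benjamini-Hochberg adjusted p over these 4 measures, which are not independent, was 0.03125 for each. The X minus autosome difference was also compared between the constructs, 3 libraries against 3, where no exact p below 0.1 is possible. At 40 to 60% the constructs overlapped, with mean differences of −0.812 points in 4EHP-ADAR and −0.811 in 4EHP W114A-ADAR (exact two-sided permutation p = 1). For the other 3 measures the libraries of the constructs did not overlap, and the exact p was 0.1 for each. The authors kept sites after comparing these constructs, which shapes the shares in each, so no conclusion about the constructs is drawn. The mean differences in 4EHP-ADAR and 4EHP W114A-ADAR were −0.389 and −0.126 points for near full, −0.954 and −1.52 for 5 to 95%, and 1.34 and 1.64 for at most 5%.

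**Figure D3:**
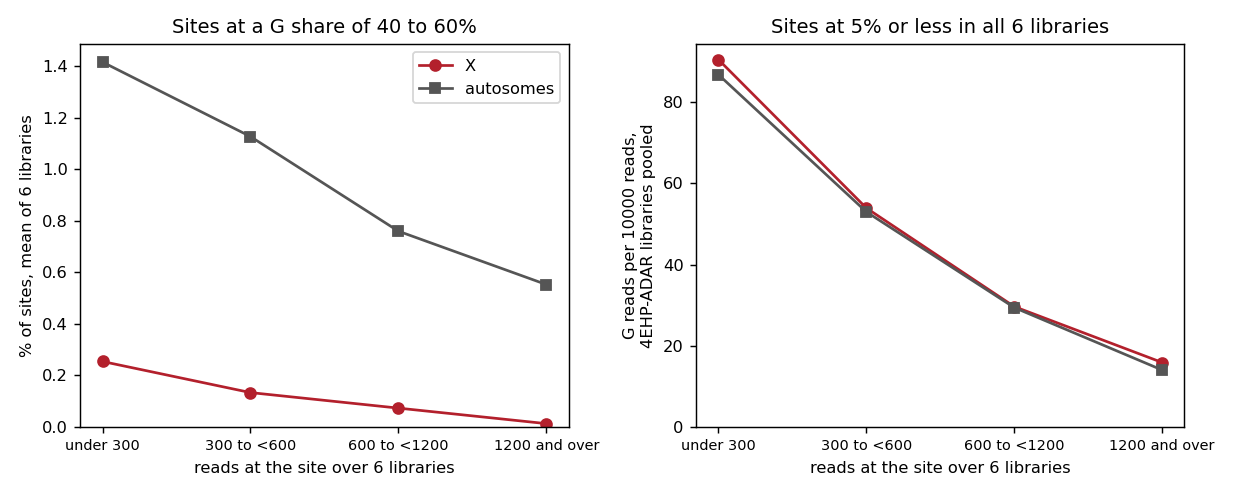
Left, percentage of sites at a G share of 40 to 60% (mean of 6 libraries) by the total reads at the site. Right, G reads per 10000 reads at sites of at most 5% in all 6 libraries, pooled over the 4EHP-ADAR libraries. The X is below the autosomes in each range on the left, at 0.0119% to 0.253% against 0.552% to 1.42%, and close to them on the right.

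Read depth moves with both results, and the X sites had fewer reads, so the values were also taken within ranges of total reads. At 40 to 60%, the mean percentages on the X and the autosomes were 0.253% and 1.42% under 300 reads, and 0.132% and 1.13% from 300 to under 600. They were 0.0721% and 0.759% from 600 to under 1200 reads, and 0.0119% and 0.552% from 1200 upwards. The X was lower in 6 of 6 libraries in each of the 4 ranges. The rate of G reads in the low class behaved otherwise. Over all low sites it was 31.4, 29.1 and 41.0 G reads per 10000 reads on the X in 4EHP-ADAR, against 26.5, 23.6 and 33.3 on the autosomes. Within the read ranges, the pooled 4EHP-ADAR rates were 90.6 on the X and 86.8 on the autosomes under 300 reads, 53.9 and 53.0 from 300 to under 600, 29.6 and 29.4 from 600 to under 1200, and 15.8 and 14.0 from 1200 upwards. A site needs 1 G read to be listed, and the rate fell with depth on the X and on the autosomes. In 4EHP-ADAR the X rate was above the autosomal one in each of the 4 ranges. In 4EHP W114A-ADAR the low-class rate was 2.75, 1.81 and 2.25 per 10000 reads on the X and 2.39, 1.64 and 1.89 on the autosomes. Within the ranges, from few to many reads, its pooled rates were 2.16, 2.62, 2.30 and 2.16 on the X and 1.60, 2.54, 2.35 and 1.64 on the autosomes, so that the X was the lower from 600 to under 1200 reads.

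The place of the sites in the transcript was counted for each class, without a test. Of the low members, 67.9% lay in coding sequence, 15.0% in 3′ UTRs and 12.1% in 5′ UTRs, against 73.0%, 11.5% and 11.4% on the autosomes. Of 7144 low coding members with 1 codon frame, 33.8%, 47.0% and 19.2% lay at the first, the second and the third base of the codon, against 33.6%, 44.7% and 21.7% on the autosomes. Of the near-full coding members, 9 of 14 (64.3%) lay at the third base, where a change most often leaves the amino acid as it is, against 78 of 102 (76.5%) on the autosomes. Among the 487 members of neither class, 41.6% of 245 coding sites lay at the third base (57.4% of 1938 on the autosomes), 23.4% of the members lay in 3′ UTRs and 20.7% in 5′ UTRs.

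Near-full sites were members of 19 different genes, 1 each, with 245 to 1796 reads over the 6 libraries and no library below 96.2%. The member with most reads was in the coding sequence of *CG4198* (FBgn0029753) at X 5314908 on the plus strand, in a gene from 5313258 to 5315190. Its G share was 100% in 5 libraries and 98.8% in 4EHP W114A-ADAR library 1, from 1253 and 543 reads in the constructs. *Lsd-2* (FBgn0030608), which encodes a perilipin of lipid droplets, had a 5′ UTR site at X 15076199 with 816 G reads of 816 and, in the mutant construct, 808 of 809. *CG9911* (FBgn0030734) had a coding site at X 16293968 with 685 of 686 and 709 of 711. At these 3 sites the constructs differed by less than 0.5 percentage points, and the 95% Wilson intervals, which cover counting error only, began at 98.7% or above. Other near-full members were in *tyf*, *COQ7*, *pod1*, *Es2* and *Usp7*.

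The other 94 members that reached 20% in 1 or more libraries lay under 78 gene names. Their range over the 6 libraries had a median of 42.7 percentage points, and 38 of them spanned more than 50 points. The highest of the 6 libraries was a 4EHP-ADAR library at most of them, library 3 at 33, library 1 at 31 and library 2 at 14. All 3 4EHP-ADAR libraries lay above all 3 4EHP W114A-ADAR libraries at 25 of the 94, and below them at 0. Over all members the first count was 100 (0.902%), against a background of 1.43% of the 69874 sites, so members were no more often separated than other sites. The authors' selection fixes the direction here too.

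Intermediate members varied more between libraries of 1 construct than autosomal sites did. For sites with a pooled share of 20 to 80% in 4EHP-ADAR, the SD over its 3 libraries had a median of 12.1 percentage points at 52 X members, with quartiles of 8.42 and 17.7. Counting alone gives a median SD of 6.15 points at these depths. At 1014 autosomal sites the median was 6.22, close to the 5.26 of counting. In 4EHP W114A-ADAR, the median SD was 23.4 points at 49 members, with 6.66 from counting, and 8.25 at 997 autosomal sites, with 6.29 from counting. More than 2 times the counting SD was found at 55.8% and 67.3% of these members and at 19.9% and 26.0% of the autosomal sites. The large autosomal arms had medians between 5.05 and 7.30 points in 4EHP-ADAR and between 7.63 and 9.60 in 4EHP W114A-ADAR. The X median was above all of them, also with a minimum of 50 reads (11.4 and 18.2 points at 17 and 19 members). No test was made of this. The members are not independent, since several lie in the same gene or close together with like patterns over the libraries, as described below.

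**Figure D4:**
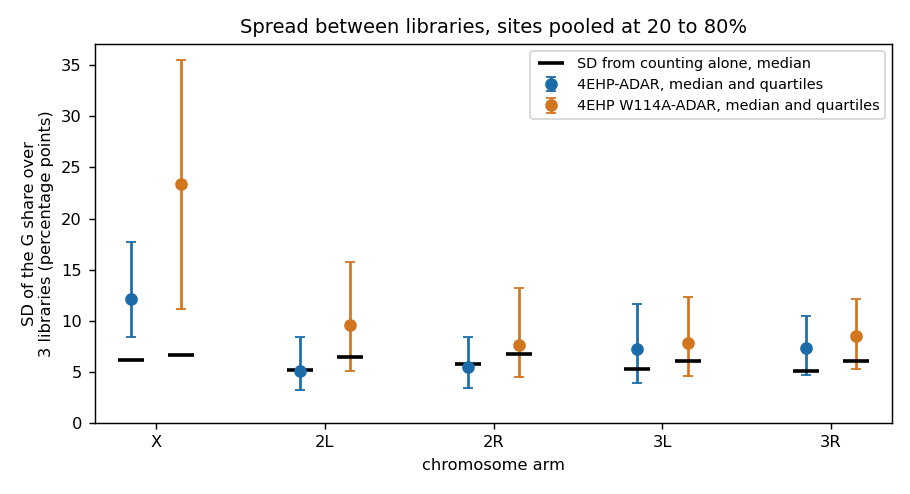
SD of the G share over the 3 libraries of a construct, in percentage points, for sites with a pooled share of 20 to 80%, by chromosome arm. Points are medians, bars run from the first to the third quartile, and black dashes are the median SD that counting alone gives. The X medians are 12.1 and 23.4 points, and those of 2L, 2R, 3L and 3R are 9.60 or less.

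Neighbouring variable sites of different genes were more alike in the 6 libraries than all pairs of sites more than 5 Mb apart. Over the 99 members at 10 to 90% in either construct, the mean difference between 2 neighbours per library had a median of 13.9 points for 13 pairs under 10 kb apart and 11.2 for 27 pairs at 10 to 100 kb. It was 16.2 for 36 pairs at 100 kb to 1 Mb and 17.8 for 5 pairs at 1 Mb or more. Over all pairs more than 5 Mb apart, neighbours or not, it was 32.7. Autosomal neighbours had 14.1, 14.2 and 16.6 points in the ranges up to 1 Mb, and 10.9 for 2 pairs beyond it. All autosomal pairs more than 5 Mb apart had 24.98. Neighbours and all distant pairs are unlike sets, and few neighbours lay far apart. These are descriptions over sites that share the 6 libraries, and no test was made.

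**Figure D5:**
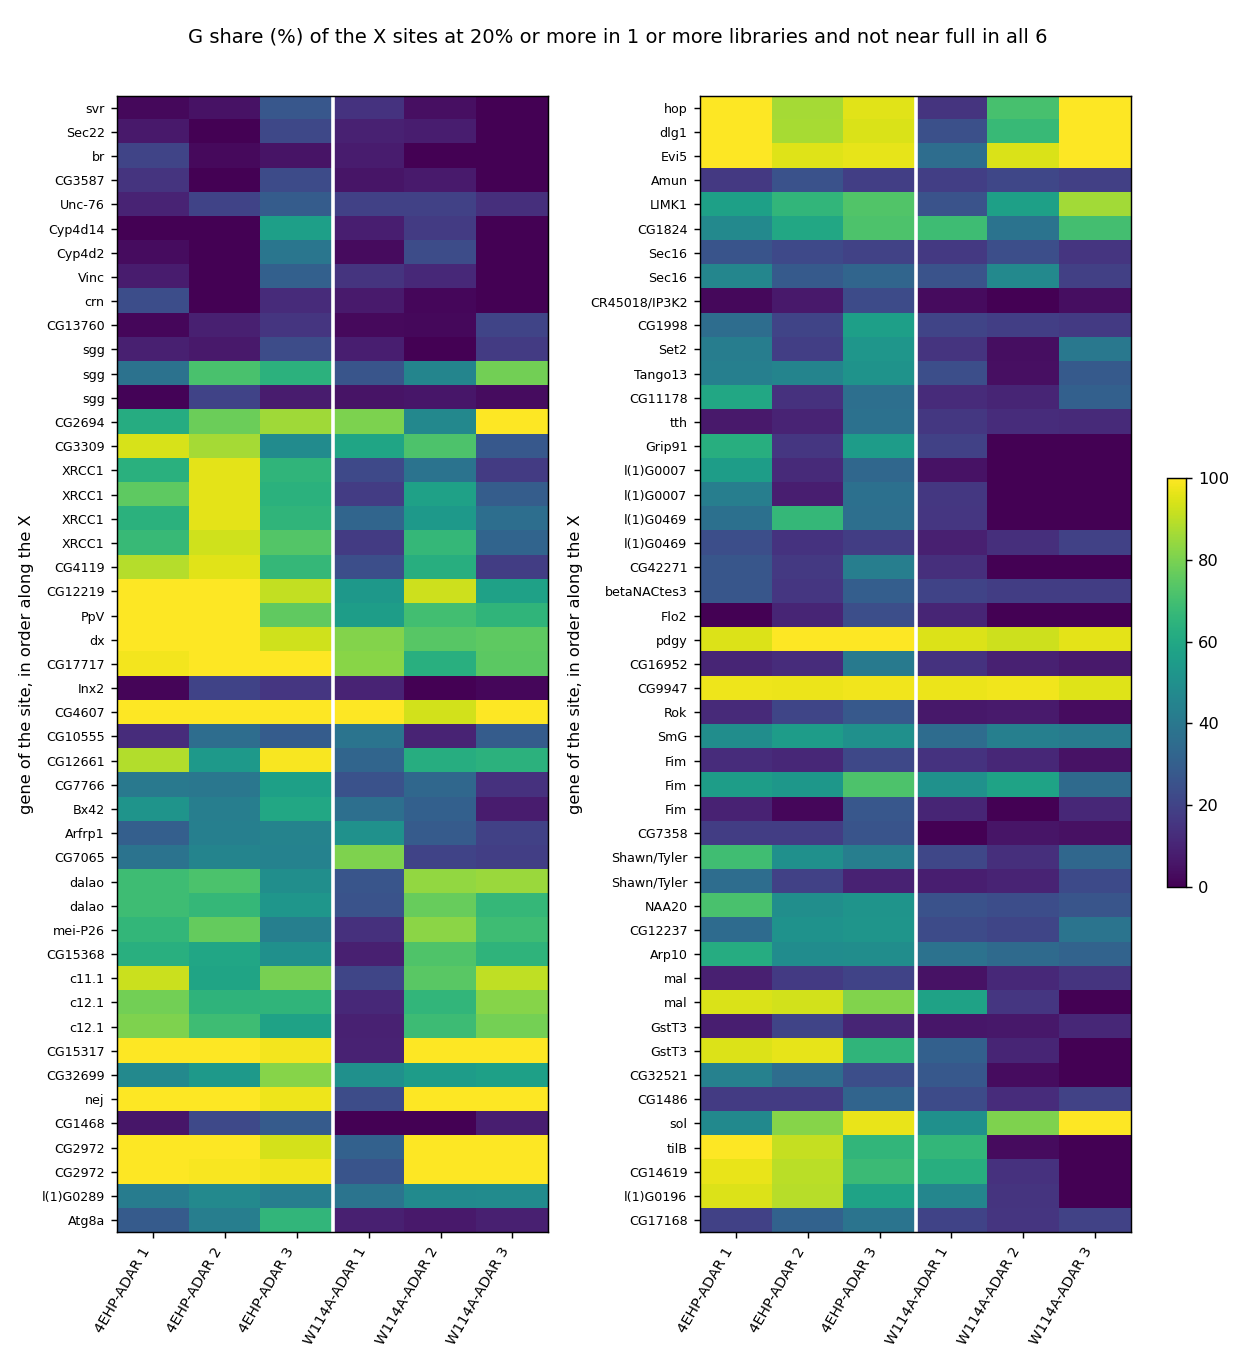
G share in each of the 6 libraries (colour, from 0 to 100%) at the 94 members that reached 20% in 1 or more libraries and were not near full in all 6, 1 row per site in order along the X, labelled by gene. Some blocks of successive rows share a part of their pattern, such as *dalao* to *c12.1*, where 4EHP W114A-ADAR library 1 is lowest, at 8.77% to 26.3%. The order of the other libraries differs between sites of this block.

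Sites no more than 200 kb from the next were joined into runs, a rule set after the values were seen. The 94 members formed 31 groups, 12 of them of 1 site, and 10 runs of 4 or more sites held 58 members. The longest run by sites ran from *CG12661* (X 8923559) to *c12.1* (X 9318177) with 12 members in 10 genes, among them *dalao*, a subunit gene of the Brahma chromatin remodelling complex, and *mei-P26*, a TRIM-NHL gene of the germline. Its median G share was 67.6%, 58.9% and 54.6% in 4EHP-ADAR, and 25.3%, 67.3% and 65.8% in 4EHP W114A-ADAR. From *dalao* to *c12.1*, 4EHP W114A-ADAR library 1 was the lowest of the 6 at each site. The 4 sites before *dalao* from *CG7766* on did not share this, and at *Arfrp1* and *CG7065* that library was the highest, at 50.6% and 80.8%.

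The same library was low over a longer stretch. *CG15317* at X 9556352 was at 100%, 100% and 98.1% in 4EHP-ADAR and at 9.52%, 100% and 100% in 4EHP W114A-ADAR. *nej*, the CBP acetyltransferase, had 100%, 100% and 97.5% against 23.3%, 100% and 100% at X 9671689. *hop*, the JAK kinase, had 100%, 86.7% and 95.7% against 14.9%, 70.7% and 100% at X 11363088. *Evi5* had 100%, 95.1% and 96.2% against 35.9%, 94.3% and 100% at X 11437380. These sites were chosen after their values were seen. Library 1 of 4EHP W114A-ADAR lay at least 20 points below every other library at 16 of the 94 members. Other members within the stretch did not have this pattern, among them *l(1)G0289*, *CG32699* and the near-full site of *RhoU*.

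Other runs had other patterns. From *CG3309* to *XRCC1*, which encodes a scaffold of DNA strand-break repair, 5 members within X 5329197 to 5332193 had medians of 67.4%, 95.8% and 65.3% in 4EHP-ADAR and 22.2%, 57.1% and 29.4% in 4EHP W114A-ADAR. From *l(1)G0007* (X 14202365) to *betaNACtes3*, 6 members had medians of 31.9%, 15.4% and 34.9%, and of 14.6%, 0% and 0%. At 7 of the 94 members no G read was found in 4EHP W114A-ADAR libraries 2 and 3. The cytochrome P450 genes *Cyp4d14* and *Cyp4d2* lay in a run from *CG3587* to *crn*. They reached 56.5% and 39.4% in 4EHP-ADAR library 3, against 0% to 23.4% in the other 5 libraries, and this library was the highest at every site of the run but *crn*. In that library the salivary gland reads were also highest. Whether they bear on this run was not tested.

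Toward the end of the arm, 3 members shared 1 pattern within X 22451078 to 22495837. *tilB*, which is needed for motile cilia, had 100%, 91.3% and 65.8% in 4EHP-ADAR and 66.4%, 2.88% and 0% in 4EHP W114A-ADAR. *CG14619* had 96.6%, 89.6% and 68.3%, and 62.8%, 14.3% and 0%. *l(1)G0196* had 94.6%, 89.3% and 58.2%, and 45.9%, 15.2% and 0%. The order of the 6 libraries was nearly the same in the 3 genes, with library 3 of 4EHP W114A-ADAR at 0 in each. *CG12576*, which lies between them at X 22480565, was near full in all 6 libraries.

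A few intermediate members were steady. The range over the 6 libraries was 15 points or less at 9 of the 94. *l(1)G0289* (FBgn0028331), at X 10357259 in the 3′ UTR, had 42.2%, 47.2% and 42.7% in 4EHP-ADAR and 38.5%, 47.7% and 48.2% in 4EHP W114A-ADAR. It was the site with most reads, 401 and 389 in the constructs, among those pooled at 40 to 60% in both constructs, and its means of 44.0% ± 2.74 and 44.8% ± 5.49 (SD, n = 3) differed by less than the spread. *Amun* had 16.8%, 25% and 18.7% against 18.5%, 21.2% and 18.9% in its 3′ UTR at X 11711001. *SmG*, a gene of the spliceosomal Sm ring, was less steady, and its groups did not overlap. It had 48.9%, 55.4% and 50% against 35.5%, 43.2% and 41.5% in its 3′ UTR at X 16639905. The next 2 sites by reads at 40 to 60% were *CG15368*, which had 62.9%, 59.3% and 50.4% against 8.77%, 72.3% and 64.9%, and *CG32699*, which had 47.2%, 53.7% and 81.8% against 50%, 55.3% and 56.7%.

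The constructs were compared site by site with a quasi-binomial model fitted to all 69874 sites, with Benjamini-Hochberg adjustment over all of them. It called 1 of the 11085 members (0.00902%) with a higher share in 4EHP-ADAR and 0 with a lower share, at an adjusted p under 0.05. The background was 65 of 69874 sites (0.093%). The authors had kept sites for more conversion in 4EHP-ADAR, the contrast fitted here, so the direction was largely set beforehand. The p values of this model, here and below, apply to sites selected in that way. At an unadjusted p under 0.05 there were 75 members and 899 sites in all. With the reads of each construct pooled and no spread between libraries, Fisher's exact test called 50 members and 750 sites, and limma on the empirical logit called 0 members and 0 sites, with 36 members at an unadjusted p under 0.05. The called member lost its call in 6 of 6 fits with 1 library left out.

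That member was in *CG17717* (FBgn0029877), at X 6590343 on the plus strand and at the third base of a codon, in a gene from 6589290 to 6590646. It had 98.3%, 100% and 100% in 4EHP-ADAR (556 of 558 reads, 95% Wilson interval 98.7% to 99.9%) and 82.4%, 63.2% and 74.8% in 4EHP W114A-ADAR (219 of 296 reads, 68.7% to 78.7%). The groups did not overlap, and the means of 99.4% ± 0.962 and 73.4% ± 9.64 (SD, n = 3) differed by 26.0 points, with an adjusted p of 0.0396 from the quasi-binomial model. With 1 library left out, the adjusted p from the same model was between 0.0713 and 0.499, and over all alternatives it was between 5.2e-33 (Fisher's exact test) and 1.00 (limma). The same run held sites of 3 other genes. *dx* had 100%, 100% and 92.9% against 81.5%, 74.2% and 75%, and *PpV* had 100%, 100% and 75.4% against 55.7%, 69.6% and 65.4%, with no overlap at either. *CG12219* had 100%, 100% and 90.6% against 53.4%, 92.5% and 57.1%, where the groups overlapped.

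The next members by p were not called and are given as values. *GstT3* (FBgn0031117), a theta-class glutathione S-transferase, had 94.8%, 96.3% and 65.4% against 30.6%, 10.2% and 0% at X 20469118 (adjusted p = 0.217, quasi-binomial model). *mal* (FBgn0002641), the molybdenum cofactor sulfurase, had 94.3%, 93.1% and 81.1% against 57.6%, 15.9% and 0% at X 20432605. The 2 sites lie in coding sequence less than 100 kb apart and had nearly the same order of libraries. Other sites of the same genes did not share it. *GstT3* had 8.31% to 20.7% against 6.00% to 11.0% at X 20468668, and *mal* had 8.93% to 20.0% against 5.00% to 15.2% at X 20430283. *NAA20* (FBgn0031043), the catalytic subunit of an N-terminal acetyltransferase, had 71.4%, 49.3% and 51.6% against 25.4%, 23.5% and 26.4% at X 19622230 (adjusted p = 0.391, quasi-binomial model).

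*SkpA* and *CG1468*, also among the next members by p, had lower shares with a small spread, at sites in 5′ UTRs. *SkpA* (FBgn0025637), an adaptor of SCF ubiquitin ligases, had 8.97%, 10.3% and 12.4% in 4EHP-ADAR and 0.588%, 2.27% and 0% in 4EHP W114A-ADAR at X 656382. Its pooled shares were 10.7% (55 of 515 reads, 8.30% to 13.6%) and 0.926% (4 of 432, 0.361% to 2.36%), with an adjusted p of 0.237 from the quasi-binomial model. *CG1468* (FBgn0030157) had 6.44%, 7.45% and 8.89% against 0.508%, 1.51% and 0.424% at X 9878432, with an adjusted p of 0.187 from the same model. Both are values of single sites in which the groups did not overlap and the SD within 4EHP-ADAR was 1.74 and 1.23 points.

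Of the members with no G read in 4EHP W114A-ADAR, the 3 with the highest pooled share in 4EHP-ADAR were all in 5′ UTRs. They were extremes of 10394 such members, with few G reads each. Of the members in neither class, 20.7% lay in 5′ UTRs. Whether such sites favour 5′ UTRs was not tested. *NAA20* had 12 of 113 reads at X 19623020, against 0 of 91, which allows up to 3.30%. *Fur2*, a furin-like protease gene, had 11 of 109 at X 16374990 against 0 of 110, which allows up to 2.73%. *CG9099* had 10.9%, 5.88% and 8.57% at X 16886515 against 0 of 88, which allows up to 3.41%. G reads were present in every 4EHP-ADAR library and in no 4EHP W114A-ADAR library at 48 members (0.433%, and 0.443% of the autosomal sites).

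In the low class, deep sites show how small the shares were. *CG10962* at X 8973753 had pooled shares of 0.189% (6 of 3179 reads) and 0.0374% (1 of 2677). *CG15784* had 9 of 2108 and 3 of 1782 in its 5′ UTR at X 5430591. *Chc*, the clathrin heavy chain, had 2.08%, 1.21% and 1.99% against 1.20%, 0% and 0.490% in its 5′ UTR at X 15835331 (39 of 2106 and 12 of 1681 reads). None of the 3 was called, and the adjusted p was 0.521 at each (quasi-binomial model).

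Gene groups were read by their counts beside those of all members, of which 95.4% were low in all 6 libraries with a median pooled share of 0.420% in 4EHP-ADAR and 0% in 4EHP W114A-ADAR. None of the groups held a called site, but only 1 of all 11085 members (0.00902%) was called, so this does not set the groups apart. Among known ADAR substrates of the nervous system and *Adar* itself, 1 of 7 genes had members, the dynamin gene *shi*, with 18 low sites and a median of 0.278%. The 5 dosage compensation and sex genes had 38 members, 37 of them low. *roX1* had 0 of 651, 0 of 427 and 12 of 484 G reads at its deepest site in 4EHP-ADAR and none in 4EHP W114A-ADAR, so that all G reads of this site came from library 3. At the deepest site of each, *mof*, the acetyltransferase of dosage compensation, had 2 of 144 G reads, and the splicing regulator *Sxl* had 2 of 290, both against 0.

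The translation group had members in 14 of 21 genes, ribosomal protein and initiation factor genes, with 73 of 76 low and a median of 0.266%. At the deepest site of each gene, the pooled 4EHP-ADAR share was between 0.0428% in *eIF-2alpha* and 0.606% in *RpS5a*. *RpS14a* and *RpS14b* are near-identical neighbours, so their reads are uncertain between the pair. The 3 members that were not low were in *eIF2B-epsilon*, *RpL17* and *Rbp2*, and the highest share in a library was 14.9%, in *eIF2B-epsilon*.

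The fat body and metabolism group had 7 of 10 genes with 62 members, 60 of them low, and a median of 0.276%. The 2 others were 5′ UTR sites in which the groups did not overlap. Such separation was found at 0.902% of all members and 1.43% of the 69874 sites, in the direction that the authors' selection favours. *Gs2*, a glutamine synthetase, had 2.17%, 12.1% and 10.0% against 0% in all 3 at X 11422897. *Zw*, glucose-6-phosphate dehydrogenase, had 8.70%, 2.63% and 9.68% against 0%, 0% and 1.96% at X 19667457. Each had an adjusted p of 0.521 (quasi-binomial model) from 8 G reads in 4EHP-ADAR.

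Growth and autophagy genes had 64 members in 4 of 6 genes, with 59 low and a median of 0.422%. *Atg8a*, the ubiquitin-like protein of autophagosome membranes, had a 5′ UTR site at X 10768316 with 28.6%, 42.9% and 65.8% in 4EHP-ADAR and 8.77%, 6.82% and 8.89% in 4EHP W114A-ADAR. The groups did not overlap, and the adjusted p was 0.521 (quasi-binomial model) from 150 and 146 reads. Its deepest site, also in the 5′ UTR at X 10768215, had 1 of 706 G reads against 0 of 597. *sgg*, the GSK3 kinase, had 4 members that were not low, the highest at X 2659213 in the 5′ UTR with 37.9%, 71.1% and 64.4% against 26.3%, 45.7% and 78.8%, where the groups overlapped.

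Transcription elongation genes had 47 members in 2 of 2 genes, with 44 low and a median of 0.610%. *RpII215*, the largest subunit of RNA polymerase II, had 2 of the 3 others, both in its 5′ UTR and both at 8.70% or less in every library. *Spt6*, an elongation factor, had the other, at 5.56% in 1 library.

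The 5 genes with most members had almost no high site. *br*, the ecdysone-induced zinc finger gene Broad, had 92 members, 91 of them low, with a median pooled 4EHP-ADAR share of 0.400%. *rudhira* had 78 members, 73 of them low, with a highest pooled share of 5.73% in 4EHP-ADAR and 3.01% in 4EHP W114A-ADAR. *nocte* had 48 low of 50, and *beta-Spec*, the spectrin beta chain, 49 of 49. *Sec16*, which organises endoplasmic reticulum exit sites, had 43 low of 48 and 2 that reached 20%. These 2, at X 12597691 and X 12600338, had 26.1%, 22.2% and 19.6% against 16.7%, 24.0% and 15.4%, and 46.0%, 28.4% and 32.7% against 19% to 46.9%.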

How the data were processed

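Fat body polyA RNA of 3 4EHP-ADAR and 3 4EHP W114A-ADAR libraries was used, out of 18 libraries in 6 groups of 3 in the series. The RNAi libraries were not used here. The authors used FLEXBAR for trimming, HISAT2 for alignment and JACUSA for calling A-to-G sites. They deposited read counts, with 1 number for every base, site and library. Those of C and T sum to 0. Positions are on dm6 per the labels. A deposited score in which the authors compare the constructs by log-likelihood was not used. Per the study's methods, targets were sites with more A-to-G conversion in 4EHP-ADAR than in the mutant control, and numeric thresholds are not given in the sources used here, and 0 value columns were unmapped. The columns are headed RNA and KO with a number. They were read as 4EHP-ADAR and 4EHP W114A-ADAR from the same rows in the study's supplementary data, and are not tied to the replicate numbers of the labels.

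Each site was kept once, and the minimum was 20 reads (A plus G) per library. Listed positions count from 0 and are given from 1. With 1 added, the codon bases of low X sites differed between strands by at most 1.95 percentage points, against 27.3 as listed. Gene parts came from BDGP6.54. The quasi-binomial model of the G reads (R 4.3.3) had its dispersion moderated with limma 3.58.1 (prior from 3432 sites with a summed variance of at least 5), floored at 1, with an F test and Benjamini-Hochberg adjustment at 0.05 over all sites. It was tested on simulated data with 1 common spread setting at every site. The members have an uneven spread, so that test does not show how the model does on them. Shares of sites were compared between the X and the autosomes by exact sign-flip permutation over libraries. Intervals are 95% Wilson intervals, and a count of 0 allows 3 counts of the total. Both cover counting error only. Nothing says whether libraries came from separate crosses, so p values measure only the spread between these samples. Overlapping and antisense genes are uncertain, since it is not stated whether calling used strand.

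The settings tried were a minimum of 10 or 50 reads, pooled reads with Fisher's exact test, limma on the empirical logit with 0.5 added, each library left out, no sites at 95% or more, chromosome 3 only, 1 site per gene and limits of 90% and 99%. Named sites were the called sites filled to 6 by smallest p, up to 3 sites with no G read in 4EHP W114A-ADAR, the 3 sites with most reads that were near full, at 40 to 60% and low, the 5 genes with most members, and the deepest site of each gene in 6 lists. Other named sites were chosen after their values were seen. The members and lists were chosen with earlier results of these data known.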

Additional observations from a re-analysis of the deposited data

How the results depend on the processing

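The count of called members was 1 as reported and with minimums of 10 and 50 reads. It was 0 without sites at 95% or more in any library, a setting that leaves out the called site itself. It was also 0 with limma on the empirical logit, where 36 members had an unadjusted p under 0.05, and 50 with Fisher's exact test on pooled reads. It was 0 to 0 with each library left out, and 0 to 37 sites of all arms were then called, the fewest without 4EHP-ADAR library 2. No paired analysis was possible because the columns are not tied to the replicate numbers of the labels.

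The X minus autosome difference at 40 to 60% kept its sign under each setting. It was −0.799 to −0.820 points with a library left out, and −0.0483 against chromosome 4 alone, where the call was lost. Near full was −0.190 against chromosome 3 (exact p = 0.125), −0.159 with 1 site per gene (exact p = 0.0625), −0.149 with a minimum of 50 reads, and −0.222 to −0.285 with a library left out. It turned to 6.84 among sites at 20% or more in 1 or more libraries and to 0.131 against chromosome 4. The difference at 5 to 95% was −1.18 with a minimum of 10 reads (exact p = 0.0625), 0.400 against chromosome 4, and −1.14 to −1.36 with a library left out. At most 5% it was 6.43 among the sites at 20% or more (exact p = 0.0625), −0.531 against chromosome 4, and 1.43 to 1.58 with a library left out. With 1 site per gene, the differences at 5 to 95% and at most 5% were −0.815 and 0.974. Without sites with a single G read, near full, 40 to 60%, 5 to 95% and at most 5% gave −0.691, −2.29, −3.27 and 3.96. Among the sites at 20% or more, 40 to 60% and 5 to 95% gave −22.1 and −13.3. The autosomal arms differed widely here. With the reads of all libraries pooled, 40 to 60% was found at 13.3% of such sites on the X. It was found at 17.2% on 3R, 23.8% on 3L, 44.9% on 2L and 58.4% on 2R. With 5 libraries no p below 0.0625 is possible, so the lost calls there say nothing about stability. The settings with chromosome 4, with sites at 20% or more and without sites with a single G read were chosen after the data were seen. The cause of these changes was not tested. At low-class sites the pooled 4EHP-ADAR rate of G reads fell with depth, and whether depth bears on these changes was not tested either.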
